A study of Mus musculus with 8 samples.

Results

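The transcription factors examined were Pax3, Pax7, Tfap2a and Tfap2b, which mark the neural plate border, Foxd3, Sox10 and Ets1, which specify the neural crest, and Snai1, Snai2 and Twist1, which act when crest cells leave the epithelium. They were chosen by gene symbol, and all 10 were found among the 46406 entries of the deposited expression table. Poly(A) RNA was sequenced from anterior neural progenitor cells (AntNPC), an in vitro model of early forebrain made from E14 mouse embryonic stem cells. All 8 libraries were made at day 5 of the same serum-free differentiation, with bFgf at 10 ng/ml until day 3 and Xav939, an inhibitor of WNT signalling, at 5 uM from day 2. The 4 wild-type (WT) libraries came from unedited E14 cells. The 4 null libraries carried a CRISPR-Cas9 deletion of PE Lhx5(-109), a poised enhancer named for its distance from Lhx5, with 2 libraries from each of 2 clonal lines, clone 1 and clone 2. Each line is 1 clone, so an effect of the deletion and an effect of deriving that clone cannot be told apart in a comparison of a clone with WT. The series' design calls the samples biological replicates without saying whether they were separate differentiations, and p-values measure the spread between these samples.

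The neural plate border is the strip of ectoderm between the neural plate and the future epidermis, and it is set up by WNT, BMP and FGF signals. Border factors such as Pax3, Pax7 and the Tfap2 proteins switch on crest specifiers, and the Snail and Twist factors then help cells lose epithelial adhesion and migrate. The most anterior neural plate does not normally form crest, and Pax3 and Pax7 also have roles in the dorsal neural tube and midbrain, so these genes are not crest markers alone.

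Promoter sequence from RefSeq (GRCm38.p6) is shown for 3 of the genes to place beside their levels, because Tfap2b was highest in clone 2, Twist1 was highest in clone 1, and Snai1 did not pass the test in either clone. Each is the 250 bases before the annotated start, on the plus strand, at chr1:19211804-19212053 for Tfap2b, chr12:33957421-33957670 for Twist1 and chr2:167537945-167538194 for Snai1. Capitals mark matches, on either strand, to the motifs searched.
Tfap2b: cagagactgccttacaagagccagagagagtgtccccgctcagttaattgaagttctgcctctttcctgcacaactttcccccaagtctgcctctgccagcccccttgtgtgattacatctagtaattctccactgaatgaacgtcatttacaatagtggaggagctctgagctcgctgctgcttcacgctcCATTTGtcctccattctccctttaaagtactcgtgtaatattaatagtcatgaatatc
Twist1: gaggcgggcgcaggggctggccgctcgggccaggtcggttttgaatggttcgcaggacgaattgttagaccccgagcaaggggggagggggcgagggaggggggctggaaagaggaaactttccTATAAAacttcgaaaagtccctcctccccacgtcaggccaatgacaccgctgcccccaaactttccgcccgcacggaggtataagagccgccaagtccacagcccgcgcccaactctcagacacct
Snai1: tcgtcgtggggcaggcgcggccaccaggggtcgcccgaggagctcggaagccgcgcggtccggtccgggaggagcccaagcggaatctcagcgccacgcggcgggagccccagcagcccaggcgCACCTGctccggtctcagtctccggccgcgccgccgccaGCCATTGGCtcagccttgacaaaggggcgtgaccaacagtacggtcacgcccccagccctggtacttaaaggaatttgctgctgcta
The motifs searched included GCCNNNGGC for TFAP2 factors. The E-box that Snail proteins bind was searched as CAGGTG. Any E-box was searched as CANNTG (to which the Snail letters also belong). Also searched were CTTTGA, the letters of TCF/LEF factors of WNT signalling, and a TATA box, written TATAAA. Among 32851 promoter windows of the same length they matched 13.7%, 17.2%, 66.2%, 13.8% and 12.4% respectively. The Tfap2b window held 1 E-box, in a sequence with 46.4% G and C. The Twist1 window held 1 TATAAA match and was 62.4% G and C. The Snai1 window held 1 TFAP2 match and 1 Snail E-box and was 70% G and C. The median over all windows was 52.4%. No TCF/LEF letters were found in these 3 windows. A match is a description of the letters only. Of the 10 genes, 6 had a promoter entry.

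Expression was given as FPKM, mapped fragments normalised to transcript length and to the total of the library, so that levels can be compared between genes. Lhx5, the gene the enhancer is named for, was at 15.0 to 17.5 FPKM in WT and at 0.854 to 1.90 FPKM in the 4 null libraries. Neural progenitor markers were present in WT, with Sox2 at 128.8 to 140.4 FPKM, Otx2 at 195.8 to 220.1 FPKM and Pax6 at 36.2 to 39.8 FPKM. Between 13983 and 14338 genes reached 1 FPKM per library. Clone 1 replicate 2 stood apart in small noncoding RNAs, with Rn7sk at 250.2 FPKM against 8.05 to 28.4 FPKM in the other libraries. The depth of single libraries is unknown. In bulk RNA, fewer cells of a type and less RNA per cell cannot be told apart.

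In WT cells the 10 genes were low. Ets1 was the highest at 5.42 ± 1.23 FPKM (mean ± SD, n = 4 here and for the other WT values), followed by Twist1 at 4.46 ± 0.693 FPKM. Pax3 (1.20 ± 0.23 FPKM), Sox10 (1.15 ± 0.093 FPKM) and Snai1 (1.08 ± 0.163 FPKM) had means just above 1 FPKM. The other 5 were below 1 FPKM: Pax7 at 0.884 ± 0.128, Tfap2a at 0.757 ± 0.096, Snai2 at 0.529 ± 0.0646, Tfap2b at 0.335 ± 0.115 and Foxd3 at 0.144 ± 0.024. Down this order the libraries of neighbouring genes did not overlap at 3 steps, from Twist1 to Pax3, from Tfap2a to Snai2 and from Tfap2b to Foxd3. At the other 6 steps, neighbours overlapped. Across all 8 libraries, Ets1 and Twist1 reached 1 FPKM in 8, Pax3 and Snai1 in 5, Sox10 in 4, Pax7 in 3, Tfap2b in 2, Tfap2a in 1, and Foxd3 and Snai2 in 0. Tests were run on genes with a mean of at least 1 FPKM over the 8 libraries, which kept Pax3, Pax7, Ets1, Snai1 and Twist1. Pax7 passed that filter only through clone 2.

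**Figure D1:**
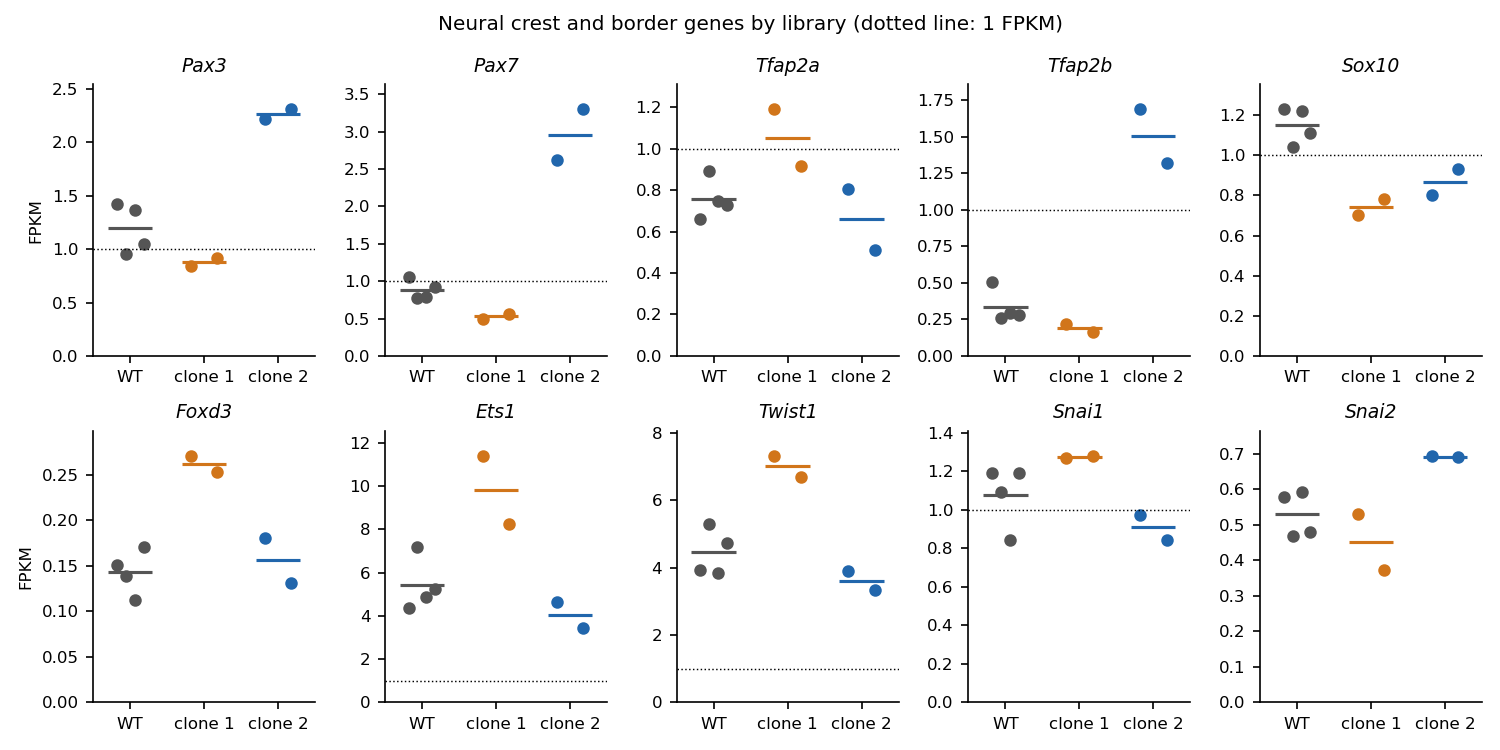
FPKM of the 10 genes (vertical axes, each panel with its own scale from 0) in WT, clone 1 and clone 2. Points are libraries, horizontal bars are group means, and the dotted line marks 1 FPKM where the panel reaches it. Pax3, Pax7 and Tfap2b were highest in both clone 2 libraries, Ets1 and Twist1 were highest in both clone 1 libraries, and Sox10 was lower in all 4 null libraries than in any WT library.

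The WT libraries differed among themselves along the same genes. WT replicate 2 held the highest WT values of Ets1 (7.19 FPKM), Twist1 (5.30 FPKM) and Tfap2a (0.890 FPKM). It also held the lowest WT values of Pax3 (0.954 FPKM), Pax7 (0.773 FPKM), Tfap2b (0.259 FPKM), Sox10 (1.04 FPKM) and Snai2 (0.469 FPKM). These are the sides on which clone 1 lay from the WT mean for all 8 of these genes, and the remaining genes, Snai1 and Foxd3, had neither extreme in this library. In the same library the summed level of 13 pluripotency markers was 136.0 FPKM, against 106.7 to 120.8 FPKM in the other WT libraries. Dnmt3b made up most of this sum, at 81.1 FPKM against 70.5 to 76.5 FPKM. Wnt1 was 85.0 FPKM against 101.1 to 103.9 FPKM. The part of the pluripotency markers and of Wnt1 in the levels of the 10 genes was not tested. This library was singled out after its values were seen.

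With all 4 null libraries set against WT, 0 of the 5 tested genes passed limma's test at an adjusted p of 0.05, beside 0.0551% of the 14521 genes tested. At an unadjusted p under 0.05 the count was also 0 of 5, and 688 of all genes tested. The log2 fold changes, of FPKM + 1 as throughout, were 0.18 for Pax3 (95% interval -0.33 to 0.68), 0.38 for Pax7 (-0.43 to 1.20), 0.21 for Ets1 (-0.53 to 0.95), 0.01 for Snai1 (-0.25 to 0.26) and 0.16 for Twist1 (-0.35 to 0.67). The adjusted p of each was 1. The null group spans both clones, whose means lay on opposite sides of the WT mean for all 5 of these genes. Without the 1 FPKM filter, 0 of the 10 genes passed, beside 0.0212% of 28300 genes. In the authors' deposited table the fold of null over WT was 1.97 for Pax7, 2.09 for Tfap2b and 1.33 for Pax3, with deposited p-values of 0.127, 0.257 and 0.228.

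Sox10, a SOX factor that keeps crest cells multipotent and later directs glial and pigment fates (ENSMUSG00000033006, chr15:79154908-79165240 in GRCm38), lay lower in every null library than in every WT library. It was 1.23, 1.04, 1.22 and 1.11 FPKM in WT, 0.700 and 0.780 FPKM in clone 1, and 0.803 and 0.933 FPKM in clone 2. Both clones lay on the same side of WT, and the WT mean was 1.43 times the null mean. Of the 10 genes it was the 1 whose null and WT libraries did not overlap, beside 3.94% of 19969 genes with a mean of at least 0.1 FPKM, and 2.85% with the null libraries lower. An exact two-sided permutation test of null against WT gave p = 0.0286, the smallest that 70 arrangements of 4 against 4 libraries allow. It treats the 2 libraries of a clone as independent and was unadjusted, and it was computed for all 10 genes. The same exact test gave p = 0.143 for Foxd3, 0.429 for Tfap2b, 0.543 for Tfap2a and 0.600 for Snai2, and 0.429 to 1 for the 5 genes of the filtered fit. In limma's fit without a filter, Sox10 had a log2 fold change of -0.25 (SE 0.067) for null against WT, with an unadjusted p of 0.00555 and an adjusted p of 0.831. For clone 1 against WT it was -0.30 (SE 0.071, adjusted p = 0.0561), and for clone 2 against WT it was -0.20 (SE 0.071, adjusted p = 0.165), so neither passed over all genes, of which 5.32% were called in clone 1 in that fit. With a pseudocount and filter of 0.1 FPKM, settings chosen after the data were seen, limma's adjusted p for clone 1 was 0.0449 with a log2 fold change of -0.57, beside 7.55% of genes called lower, and for clone 2 it was 0.152. The authors' deposited table gave Sox10 mean reads of 95 in WT and 67.6 in null, with a p-value of 0.00329 that became 0.245 when adjusted here over 28134 genes.

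Among the border factors, Pax3, a paired-box factor of the border and dorsal neural tube (ENSMUSG00000004872, chr1:78101267-78197134), was 1.42, 0.954, 1.37 and 1.05 FPKM in WT, 0.841 and 0.917 FPKM in clone 1, and 2.22 and 2.31 FPKM in clone 2. Both clone 2 libraries lay above every WT library, and both clone 1 libraries lay below every WT library. Pax3 rose in clone 2, with a mean 1.89 times that of WT and a log2 fold change of 0.58 (SE 0.111, limma adjusted p = 0.0167), an adjusted p that became 0.157 without clone 2 replicate 2. In clone 1 the log2 fold change was -0.22 (95% interval -0.47 to 0.03, limma adjusted p = 0.205). Pax7, the paired-box relative of Pax3 (ENSMUSG00000028736, chr4:139737062-139833528), was 1.05, 0.773, 0.794 and 0.920 FPKM in WT, 0.497 and 0.559 FPKM in clone 1, and 2.62 and 3.30 FPKM in clone 2. The 3 groups did not overlap, in the same order as for Pax3. Because Pax7 passed the 1 FPKM filter only through clone 2, its test is given from the fit without a filter. There it rose in clone 2, with a mean 3.35 times that of WT and a log2 fold change of 1.07 (SE 0.097, limma adjusted p = 0.00716). In clone 1 its log2 fold change was -0.30 (95% interval -0.53 to -0.07), with an unadjusted p of 0.0169 and a limma adjusted p of 0.126.

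Tfap2b, an AP-2 factor of the border and of crest derivatives (ENSMUSG00000025927, chr1:19208914-19238576), whose promoter is printed above, was 0.506, 0.259, 0.295 and 0.279 FPKM in WT, 0.221 and 0.162 FPKM in clone 1, and 1.69 and 1.32 FPKM in clone 2. It was below 1 FPKM in WT and clone 1 and above 1 FPKM in both clone 2 libraries. Its mean in clone 2 was 4.5 times that in WT, the highest such ratio of the 10 genes. Its mean over the 8 libraries, 0.592 FPKM, kept it out of the filtered fit. In the fit without a filter it rose in clone 2, with a log2 fold change of 0.91 (SE 0.098, limma adjusted p = 0.0120), beside 4.1% of 28300 genes called and 2.35% called higher. Leaving out each library in turn kept that adjusted p between 0.0156 and 0.0484. In clone 1 its log2 fold change was -0.16 (95% interval -0.39 to 0.07, limma adjusted p = 0.398). Tfap2a, the AP-2 relative also active in surface ectoderm (ENSMUSG00000021359, chr13:40715302-40738376), had a different order. It was 0.662, 0.890, 0.748 and 0.728 FPKM in WT, 1.19 and 0.915 FPKM in clone 1, and 0.807 and 0.513 FPKM in clone 2. Clone 1 lay above WT, and clone 2 overlapped WT. Neither difference passed in the fit without a filter, with log2 fold changes of 0.22 (limma adjusted p = 0.261) and -0.09 (limma adjusted p = 0.732). Its span overlaps 3 annotated genes of the opposite strand (Gm26688, Gm47061 and Gm47067), and no source used here says if the counting used strand.

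Foxd3, a forkhead factor of early crest that is also expressed in pluripotent cells (ENSMUSG00000067261, chr4:99656299-99658622), was far below 1 FPKM in every library. It was 0.151, 0.139, 0.113 and 0.171 FPKM in WT, 0.271 and 0.253 FPKM in clone 1, and 0.181 and 0.131 FPKM in clone 2. The clone 1 values lay above the rest, with a mean 1.83 times that of WT. The log2 fold change in clone 1 was 0.14 (95% interval 0.04 to 0.24) with an unadjusted p of 0.0124 and an adjusted p of 0.107 in limma's fit without a filter. The authors' deposited table gave it 10.7 mean reads in WT and 16.5 in null. Its span overlaps the annotated gene Gm23366 on the same strand.

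Ets1, an ETS factor of cranial crest that also works in endothelial and blood cells (ENSMUSG00000032035, chr9:32636221-32757820), was 4.37, 7.19, 4.88 and 5.24 FPKM in WT, 11.4 and 8.25 FPKM in clone 1, and 4.65 and 3.45 FPKM in clone 2. Clone 1 lay above every WT library, and clone 2 overlapped WT. Ets1 rose in clone 1, with a mean 1.81 times that of WT and a log2 fold change of 0.76 (SE 0.192, limma adjusted p = 0.0366). That call was lost without a filter (limma adjusted p = 0.0724) and when any of WT replicates 1, 3 and 4 or either clone 1 library was left out (limma adjusted p = 0.0757 to 0.143). Its span overlaps the annotated gene Gm27240 on the opposite strand. In clone 2 its log2 fold change was -0.34 (95% interval -0.78 to 0.11, limma adjusted p = 0.279). All 9 endothelial and blood markers examined were under 1 FPKM on average. Their summed level was 0.912 to 1.24 FPKM in WT, 0.921 to 1.15 FPKM in clone 1 and 0.467 to 0.670 FPKM in clone 2. Cdh5 had no signal in either library of clone 1, nor in WT replicates 2 and 4 or clone 2 replicate 2. Single markers differed in direction. Mean Gata1 was higher in clone 1 than in WT (0.294 against 0.124 FPKM), and mean Pecam1 was lower (0.366 against 0.474 FPKM).

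Twist1, a basic helix-loop-helix factor of migrating crest and its mesenchyme (ENSMUSG00000035799, chr12:33957671-33959829), was 3.93, 5.30, 3.85 and 4.74 FPKM in WT, 7.32 and 6.69 FPKM in clone 1, and 3.89 and 3.34 FPKM in clone 2. Clone 1 lay above every WT library, as for Ets1, and clone 2 overlapped the lower WT libraries. Twist1 rose in clone 1, with a mean 1.57 times that of WT and a log2 fold change of 0.56 (SE 0.119, limma adjusted p = 0.0181). The adjusted p was 0.0663 without clone 1 replicate 1 and 0.0824 without clone 1 replicate 2. In clone 2 its log2 fold change was -0.24 (95% interval -0.51 to 0.03, limma adjusted p = 0.217). Mesoderm, which also uses Twist1, was represented by 12 markers, of which 11 were under 1 FPKM on average. Their summed level was 9.73 to 11 FPKM in WT, 7.95 to 8.43 FPKM in clone 1 and 10.8 to 12.2 FPKM in clone 2. Most of it came from Pdgfra, which set the lower sum of clone 1, with means of 7.78, 4.59 and 9.27 FPKM respectively. The markers under 1 FPKM went both ways in clone 1. Mean Eomes was 0.429 FPKM in WT and 0.921 FPKM in clone 1, and mean Kdr was 0.194 and 0.129 FPKM. Msgn1 was listed at 0 in all 8 libraries.

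The Snail factors, which repress the epithelial cadherin gene Cdh1, did not pass the test in either clone. Snai1 (ENSMUSG00000042821, chr2:167538195-167542814) was 1.19, 1.09, 0.844 and 1.19 FPKM in WT, 1.27 and 1.28 FPKM in clone 1, and 0.974 and 0.842 FPKM in clone 2. Clone 1 lay just above the WT libraries and clone 2 overlapped them. The log2 fold changes were 0.13 in clone 1 (95% interval -0.10 to 0.37, limma adjusted p = 0.397) and -0.12 in clone 2 (95% interval -0.35 to 0.11, limma adjusted p = 0.466). Snai2 (ENSMUSG00000022676, chr16:14705852-14709385) was below 1 FPKM in all libraries, at 0.578, 0.469, 0.591 and 0.478 FPKM in WT, 0.529 and 0.373 FPKM in clone 1, and 0.694 and 0.689 FPKM in clone 2. Clone 2 lay above WT, and clone 1 overlapped it. The log2 fold changes without a filter were -0.08 in clone 1 (95% interval -0.24 to 0.09, limma adjusted p = 0.599) and 0.15 in clone 2 (95% interval -0.02 to 0.31, limma adjusted p = 0.308).

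Counted over the fit of 14521 genes, 2 of the 5 tested genes rose and 0 fell in clone 1 (Ets1 and Twist1), beside 15.6% of all genes called in either direction, 4.16% higher and 11.4% lower. In clone 2, Pax3 rose and 0 fell, beside 14.0% of all genes, 7.06% higher and 6.96% lower, with Pax7 left uncounted because clone 2 carried it past the filter. In the fit of 28300 genes without a filter, which kept all 10 genes, 1 rose in clone 1 (Twist1), beside 5.32% of genes called and 1.73% called higher. In the same fit 3 rose in clone 2 (Pax3, Pax7 and Tfap2b), beside 4.1% called and 2.35% called higher. The median log2 fold change over all genes was -0.05 in clone 1 and 0.00 in clone 2. Without regard to a test, clone 1 and WT libraries did not overlap for 9 of the 10 genes (5 above, 4 below), beside 36.8% of 19969 genes (12.7% above, 24.2% below). Clone 2 and WT libraries did not overlap for 5 of the 10 (4 above, 1 below), beside 41.6% (20.7% above, 21.0% below). The comparisons of the clones with WT share the 4 WT libraries, so they are not independent of each other.

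**Figure D2:**
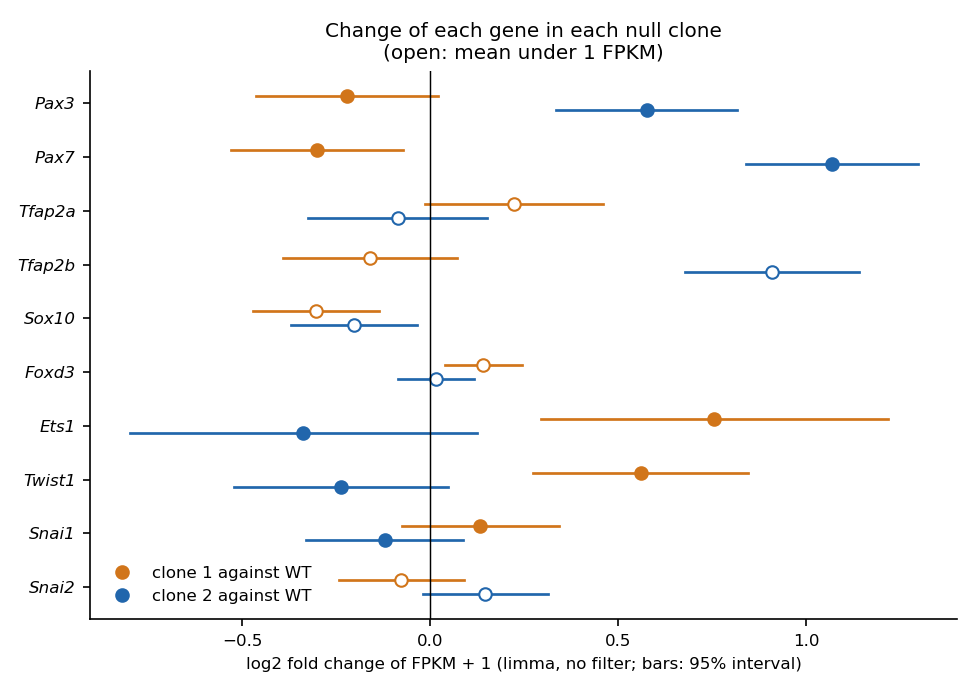
Log2 fold change of FPKM + 1 against WT (horizontal axis) of each gene in clone 1 and clone 2, from limma's fit without a filter, with 95% intervals. Open points are genes with a mean under 1 FPKM over the 8 libraries. Pax3, Pax7 and Tfap2b lay to the right in clone 2 and to the left of 0 in clone 1, Ets1 and Twist1 had the opposite arrangement, and Sox10 lay to the left in both.

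Compared directly, the clones differed for Pax3, Ets1 and Twist1 in the fit of 14521 genes, beside 39.9% of all genes, 24.9% higher in clone 2 and 15.0% lower. Pax3 (log2 fold change of clone 2 over clone 1 0.80, limma adjusted p = 0.00201) was higher in clone 2, as was Pax7 in the fit without a filter (1.37, limma adjusted p = 0.00147). Their clone 2 means were 2.58 and 5.61 times their clone 1 means. Ets1 (-1.09, limma adjusted p = 0.00665) and Twist1 (-0.80, limma adjusted p = 0.00268) were higher in clone 1, by ratios of 2.42 and 1.94. The Ets1 difference had a limma adjusted p of 0.0524 without clone 2 replicate 2. For Snai1 the log2 difference was -0.26 (95% interval -0.53 to 0.02, limma adjusted p = 0.120). In the fit without a filter Tfap2b was higher in clone 2 (1.07, limma adjusted p = 0.00216), beside 20.8% of 28300 genes called and 12.3% called higher, and its clone 2 mean was 7.86 times its clone 1 mean. Sox10 (0.10, 95% interval -0.09 to 0.29), Foxd3 (-0.13, -0.24 to -0.01), Tfap2a (-0.31, -0.58 to -0.04) and Snai2 (0.22, 0.03 to 0.42) had limma adjusted p-values of 0.454, 0.123, 0.111 and 0.102. The libraries of the clones did not overlap for any of the 10 genes, of which 5 were higher and 5 lower in clone 2, beside 63.8% of 19969 genes (35.0% higher, 28.8% lower).

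The signals that set up the border had their own pattern in the clones. Of 16 signal genes listed, 8 were tested, of which 0 rose and 2 fell in clone 1 (median log2 fold change -0.34) and 4 rose and 0 fell in clone 2 (median 0.23). Wnt1, a WNT ligand of the midbrain and dorsal neural tube, was 85.0 to 103.9 FPKM in WT, 43.4 and 50.9 FPKM in clone 1, and 164.6 and 177.4 FPKM in clone 2. It fell in clone 1 by 1.04 and rose in clone 2 by 0.80 on the log2 scale (limma adjusted p = 0.00184 and 0.00453). Wnt3a, a dorsal WNT ligand, was 2.32 to 3.92 FPKM in WT, 1.15 and 1.34 FPKM in clone 1 and 11.1 and 9.63 FPKM in clone 2 (log2 fold changes -0.98 and 1.36, limma adjusted p = 0.00918 and 0.00409). Fgf8, the FGF ligand of the midbrain and hindbrain boundary, rose in clone 2 (1.67, limma adjusted p = 0.0175), from 1.29 to 3.08 FPKM in WT to 6.98 and 12.5 FPKM. The groups of Wnt1 and Wnt3a libraries lay in the same order as those of Pax3, Pax7 and Tfap2b. Gdf7, a dorsal BMP ligand, passed narrowly in clone 2 (0.38, limma adjusted p = 0.0499, and 0.0432 to 0.226 with each library left out, lost in 6 of 8 cases), and Bmp7, another BMP ligand, was 8.17 to 10.1 FPKM in WT, 11.1 and 10.7 FPKM in clone 1 and 10.6 and 8.98 FPKM in clone 2. When each library was left out in turn, the number that rose in clone 2 was 1 to 4, lowest without clone 2 replicate 2, and the number that fell in clone 1 was 1 to 3, lowest without clone 1 replicate 2. Xav939 was present in all groups.

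Other border genes moved both ways. Of 19 listed, 11 were tested, of which 2 rose and 4 fell in clone 1 (median -0.24) and 5 rose and 0 fell in clone 2 (median 0.39). Zic1, a zinc-finger factor that works with Pax3 at the border, was 1.09 to 2.56 FPKM in WT, 0.457 and 0.313 FPKM in clone 1, and 7.90 and 11.1 FPKM in clone 2. Its log2 fold changes were -1.05 and 1.86 (limma adjusted p = 0.0166 and 0.00397), in the order seen for Pax7. Gbx2, a homeobox factor of the border and anterior hindbrain, changed likewise (-1.08 and 1.73, limma adjusted p = 0.00680 and 0.00178). Irx1 and Irx2, Iroquois factors, rose in clone 2 (0.80 and 0.74), and Hes1 and Hes3, repressors of the Hairy and Enhancer-of-split family, fell in clone 1 (-0.40 and -1.14). The 2 that rose in clone 1 were Msx1, a border factor induced by BMP (0.41, limma adjusted p = 0.0216), and Zic2 (0.49, limma adjusted p = 0.0385). Without a filter their limma adjusted p-values were 0.0359 and 0.0674. Msx1 had the smallest p of this list for all null against WT, with a log2 fold change of 0.28 and a limma adjusted p of 0.996. With each library left out, 2 to 5 of the list rose in clone 2, fewest without clone 2 replicate 2. In clone 1, 0 to 3 rose, with 0 when WT replicate 1, 3 or 4 or clone 1 replicate 2 was left out, and 1 to 5 fell, fewest without clone 1 replicate 2.

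**Figure D3:**
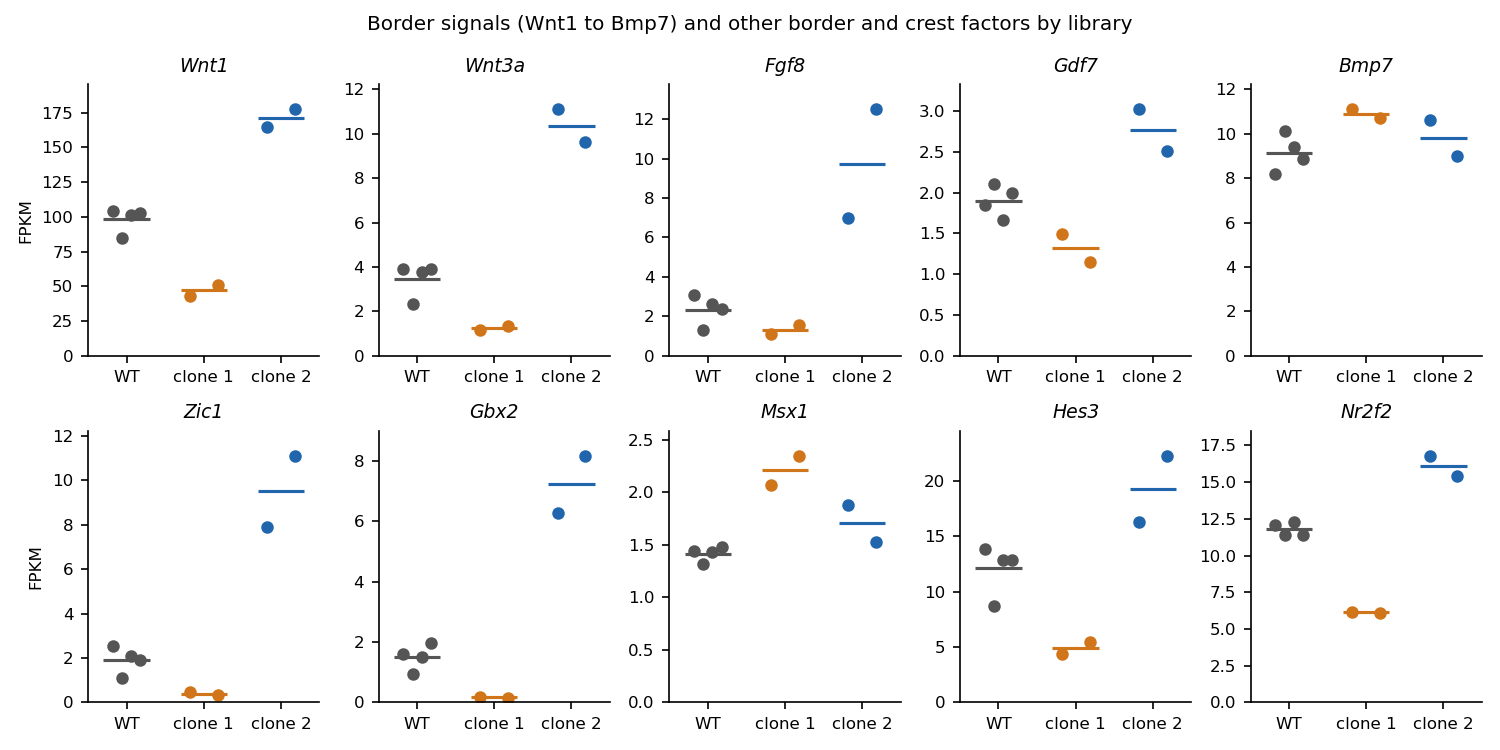
FPKM (vertical axes, each from 0) of 5 signal genes (Wnt1, Wnt3a, Fgf8, Gdf7 and Bmp7) and 5 border or crest factors (Zic1, Gbx2, Msx1, Hes3 and Nr2f2) in WT, clone 1 and clone 2. Points are libraries and bars are group means. Wnt1, Wnt3a, Zic1, Gbx2 and Nr2f2 lay above WT in clone 2 and below WT in clone 1.

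Of 20 other crest specifiers, 16 were tested. In clone 1, 0 rose and 8 fell (median -0.22), and in clone 2, 6 rose and 1 fell (median 0.21). Nr2f2, a nuclear receptor of cranial crest, fell in clone 1 and rose in clone 2 (-0.84 and 0.42, limma adjusted p = 0.000370 and 0.00757). Id3, an inhibitor of helix-loop-helix factors that keeps crest progenitors undifferentiated, did the same (-0.37 and 0.40, limma adjusted p = 0.00348 and 0.00364). Sox9, the SOX factor of early crest related to Sox10, was 36.1 to 39.8 FPKM in WT, 33.6 and 30.9 FPKM in clone 1, and 29.4 and 26.6 FPKM in clone 2. Its null libraries were all below its WT libraries, as for Sox10, at a much higher level, and it is also a neural progenitor gene. Sox9 fell in both clones (-0.22 and -0.42, limma adjusted p = 0.0433 and 0.00701), and its adjusted p for all null against WT was 0.442. With each library left out, the Sox9 call was lost in 5 of 8 cases in clone 1 (limma adjusted p = 0.0389 to 0.223), and in clone 2 it was lost without clone 2 replicate 2 (limma adjusted p = 0.0822). Leaving out each library gave 2 to 8 lower calls in clone 1 and 4 to 6 higher calls in clone 2, fewest without replicate 2 of the respective clone.

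Of 18 genes of the epithelial-to-mesenchymal transition (EMT) and migration, 15 were tested, of which 1 rose and 6 fell in clone 1 (median -0.08) and 3 rose and 3 fell in clone 2 (median 0.05). Cdh1, the epithelial cadherin that Snail and Twist factors are known to repress, rose in clone 1, the line with the highest Twist1. It was 5.87 to 9.90 FPKM in WT, 24.6 and 19.8 FPKM in clone 1 and 5.04 and 3.96 FPKM in clone 2 (log2 fold change in clone 1 1.48, limma adjusted p = 0.00576). A link between the levels of Twist1 and Cdh1 was not tested, and bulk RNA does not show if the same cells held both. Cdh2, the neural cadherin, fell in clone 1 (-0.63), as did Cdh6, a cadherin of premigratory crest (-1.07), and Fn1, the fibronectin that crest cells migrate on (-0.57), with limma adjusted p = 0.00611, 0.00284 and 0.00890. In clone 2, Vim (0.42), an intermediate filament, and Rhob (0.41), a small GTPase, rose, and Zeb2 (-0.38), a repressor of Cdh1, and Mmp2 (-0.44), a matrix protease, fell. The Zeb2 call (limma adjusted p = 0.0327) was lost without a filter (limma adjusted p = 0.0787) and when any WT replicate was left out. Zeb1 fell in clone 1, from a mean of 12.5 to 8.82 FPKM (-0.46, limma adjusted p = 0.01, and 0.0269 without a filter). The number that fell in clone 1 was 1 to 7 with each library left out, and the list's median became 0.02 without clone 1 replicate 2. Without clone 2 replicate 2, 0 rose and 0 fell in clone 2.

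Of 13 receptors of crest cells, 11 were tested, of which 0 rose and 6 fell in clone 1 (median -0.39) and 2 rose and 0 fell in clone 2 (median 0.02). Ednrb, the endothelin receptor of pigment and enteric crest, was 1.04 to 1.60 FPKM in WT, 0.488 and 0.570 FPKM in clone 1, and 2.53 and 2.87 FPKM in clone 2 (-0.60 and 0.68, limma adjusted p = 0.0128 and 0.00996). Nrp2, a semaphorin receptor, fell in clone 1 and rose in clone 2 (-1.02 and 0.69, limma adjusted p = 0.00647 and 0.0234). Kit and Cxcr4 fell in clone 1 (-0.45 and -0.58). Without clone 1 replicate 2 the number that fell in clone 1 was 2, and without clone 2 replicate 2 the number that rose in clone 2 was 0. Of 17 genes of crest derivatives, 12 were under 1 FPKM on average. Among the 5 tested, 0 rose and 1 fell in clone 1 (Crabp1, a retinoic acid binding protein, -0.40), and 1 rose and 1 fell in clone 2 (Fabp7, a gene of radial and crest glia, 2.26, and Phox2a, an autonomic neuron factor, -0.52). The Phox2a call was lost without a filter (limma adjusted p = 0.0855) and in 6 of 8 cases with a library left out, among them clone 1 replicate 2, with limma adjusted p = 0.0238 to 0.328. Dct, a pigment cell gene, was listed at 0 in 7 of 8 libraries. Other pigment genes of the same list were detected. Pmel was tested and passed in neither clone. Its group means ran from 1.83 FPKM (clone 2) to 2.51 FPKM (clone 1), with WT at 2.23 FPKM. Mean Mitf lay between 0.622 and 0.647 FPKM in every group. Median log2 fold changes of this list were 0.12 in clone 1 and -0.20 in clone 2.

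**Figure D4:**
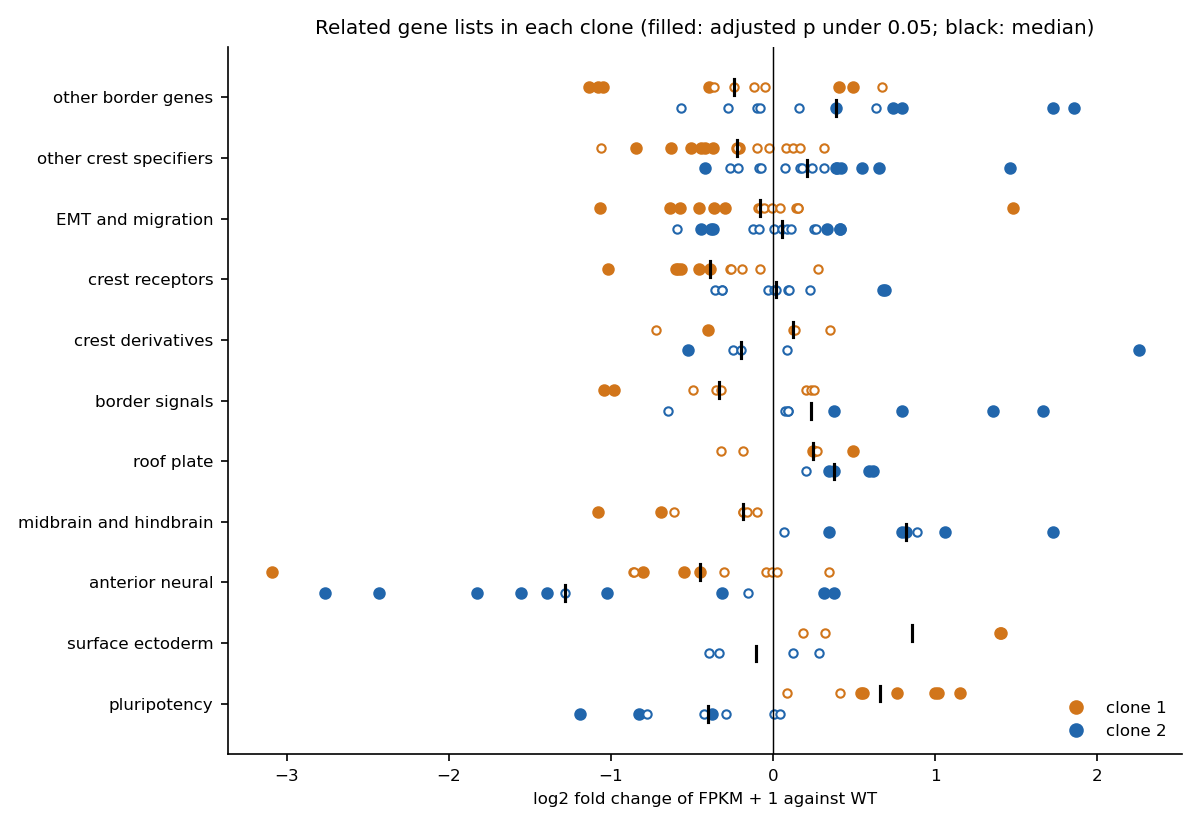
Log2 fold change of FPKM + 1 against WT (horizontal axis) of the tested genes of 11 related lists (vertical axis) in clone 1 and clone 2. Filled points passed limma's test, open points did not, and black bars are list medians. The medians of other border genes, other crest specifiers and border signals lay below 0 in clone 1 and above 0 in clone 2, and those of pluripotency genes lay on the opposite sides.

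Markers of other regions also changed in the clones. By list median, midbrain and hindbrain markers lay on the same sides of WT as Pax3, Pax7 and Tfap2b. Roof plate medians were above 0 in both clones, and anterior neural medians were below 0 in both. For midbrain and hindbrain, where Pax3 and Pax7 are also expressed, 4 of 11 markers were under 1 FPKM, and the summed level was 68.6 to 85.8 FPKM in WT, 57.7 to 60.5 FPKM in clone 1 and 124.7 to 139.3 FPKM in clone 2. Of the 7 tested, 0 rose and 2 fell in clone 1 (median -0.19) and 5 rose and 0 fell in clone 2 (median 0.82), with En1, a midbrain homeobox factor, at -0.69 and 1.06. Pax8, 1 of the 5, passed the filter only through clone 2, so nothing is read from its place in this count and median. With clone 2 replicate 2 left out, Pax8 was not tested, and the clone 2 median of the other 6 was 0.60. Without clone 1 replicate 2 the number that fell in clone 1 was 0, and without clone 2 replicate 2 the number that rose in clone 2 was 1. Of 11 anterior neural genes, 0 rose and 4 fell in clone 1 (median -0.45), and 2 rose and 7 fell in clone 2 (median -1.28). Without replicate 2 of the respective clone these medians became -0.28 and -0.78. Lhx5, the gene the deleted enhancer is named for, is in this list and is among those that fell in each clone (-3.09 and -2.76). In clone 2, Pax6, a forebrain factor, was at -1.39 and Rax, an eye field factor, was at -1.82. Besides Lhx5, the genes that fell in clone 1 were Lhx2, Sox1 and Nes. Sox1 and Nes were also the 2 that rose in clone 2. That count of 2 became 0 without a filter, and also when WT replicate 2, 3 or 4 was left out. Roof plate genes, of which 5 of 8 were tested, had 2 that rose in clone 1 (median 0.25) and 4 that rose in clone 2 (median 0.38), Lmx1b and Rspo1 in both. The number was 0 in clone 1 without clone 1 replicate 1 and 1 in clone 2 without clone 2 replicate 2. The summed roof plate level was 52.4 to 57.6 FPKM in WT, 68.1 to 70.1 FPKM in clone 1 and 81.4 to 84.3 FPKM in clone 2. Gdf7 and Gbx2 each stand in more than 1 list. The part of regional markers in the higher Pax3, Pax7 and Tfap2b of clone 2 was not tested.

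Beside the higher Ets1 and Twist1 of clone 1, the summed level of 13 pluripotency markers, 5 of them under 1 FPKM, was 182.8 to 203.1 FPKM in clone 1, 106.7 to 136.0 FPKM in WT and 77.1 to 88.7 FPKM in clone 2. Most of this sum came from Dnmt3b, at 104.0 to 116.5 FPKM in clone 1, 70.5 to 81.1 FPKM in WT and 55.1 to 60.5 FPKM in clone 2. Of the 8 tested, 6 rose and 0 fell in clone 1 (median 0.66) and 0 rose and 3 fell in clone 2 (median -0.40). All 8 had log2 fold changes above 0 in clone 1. Among the markers outside the fit, Esrrb and Zfp42 were lower in clone 1. Their means were 0.503 and 1.25 FPKM in WT and 0.217 and 1.0 FPKM in clone 1. Dppa4 and Fgf5, genes of pluripotent and early epiblast cells, rose in clone 1 by 1.02 and 1.00, and Dppa5a fell in clone 2 by 1.19. Without clone 1 replicate 2 the number that rose in clone 1 was 2, and without clone 2 replicate 2 the number that fell in clone 2 was 1. Of 11 surface ectoderm and epithelial markers, 4 were tested, of which Epcam and Cldn6, epithelial adhesion and junction genes, rose in clone 1 (1.40 and 1.41), and 0 changed in clone 2, with medians of 0.86 and -0.11. Their summed level was 52.8 to 59.4 FPKM in clone 1, 31.7 to 44.9 FPKM in WT and 26.8 to 38.9 FPKM in clone 2. The defining epidermal genes were absent or near 0, with Krt14 listed at 0 in all libraries and Trp63 at no more than 0.0259 FPKM. Of 13 placode genes, 6 were tested, of which 2 fell in clone 1 (Eya1 and Sox3, median -0.13) and 2 rose in clone 2 (Eya1 and Pax8, median 0.08). Pax8, which is also among the midbrain and hindbrain genes that rose, averaged 0.734 FPKM in WT and 0.612 FPKM in clone 1 and passed the filter only through clone 2 (2.03 FPKM), and nothing is read from its place in the counts. It had a limma adjusted p of 0.0357 without a filter. Without replicate 2 of the respective clone these counts became 1 and 0, and without clone 1 replicate 2 the count of surface ectoderm genes that rose in clone 1 was 1. The single tested endoderm gene, Cxcr4, is the crest receptor given above, and the single tested mesoderm gene, Pdgfra, fell in clone 1 (-0.65, limma adjusted p = 0.00319). The part of pluripotent or epithelial cells in the levels of the 10 genes was not tested.

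The genes whose log2(FPKM + 1) tracked that of each tested gene most closely over the 8 libraries were found among 14447 genes by Pearson's r. They were Mkrn3 (0.993) and Slit2 (0.984) for Pax3, Nop2 (0.998) and Dusp5 (0.995) for Pax7, Gm17066 (0.995) and Anxa6 (0.992) for Ets1, Anxa4 (0.997) and Ybx3 (0.996) for Twist1, and Rpain (0.977) and Gpr63 (0.971) for Snai1. A value of r above 0.9 was common for 4 of the 5 genes, with 753 to 868 such genes for each of Pax3, Pax7, Ets1 and Twist1, against 34 genes for Snai1. The 8 libraries share clones, so these values describe 3 groups more than 8 independent points.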

How the data were processed

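Sample titles and column headers gave the groups. The authors deposited FPKM per library and per genotype, the mean reads of each genotype (a signal whose scaling is not stated), their fold (a ratio of null to WT) and a p-value with no stated test, per the file headers. The submitters' processing notes list TopHat2, Cufflinks, SAMtools, FastQC and DESeq2, and the builds mm10 and GRCm38, with no version or role. Counts per library were not analysed here.

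Genes with a mean of at least 1 FPKM over 8 libraries (14521) were fitted as log2(FPKM + 1) with limma 3.58.1 in R 4.3.3, with trend and robust variance moderation and Benjamini-Hochberg adjustment over all genes at 0.05. The pseudocount of 1 understates changes of low genes. Null against WT used 2 groups. Clone comparisons used 3 groups sharing 1 spread, which measures the spread within a line. Members under the filter, and Pax7 between lines, were tested in a fit of all genes without it. An exact two-sided permutation test, unadjusted, was computed for null against WT in all 10 members. The code was tested on simulated data. Coordinates are from GENCODE M21 (GRCm38), and promoter sequences from RefSeq (GRCm38.p6).

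The 10 members and 15 further lists were chosen with earlier results of these data known. All members were named. Zeb1, Zic2, Bmp4, Pmel, Mitf and the clone 1 value of Msx1 were added outside the rule that follows. In each other list and comparison, up to 4 genes past the threshold with the smallest adjusted p were named, or the 1 with the smallest p, together with defining cell type markers, Lhx5, and for each tested member the 2 genes with the highest correlation. Of the mesoderm list, 1 gene was not analysed here. A result for 1 further listed gene is not reported here. Alternatives were other pseudocounts and filters, rescaling by the median ratio, a joint fit, correlated libraries of a line, no moderation, and each library left out. The fit at 0.1 FPKM and the leave-one-out fits without a filter were added after the data were seen.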

Additional observations from a re-analysis of the deposited data

Results flagged for a closer look

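For 5 of the 10 genes the effect against WT differed between the clones by a direct test of the difference, clone 2 minus clone 1 on the log2 scale. The differences were 0.80 for Pax3, 1.37 for Pax7, -1.09 for Ets1 and -0.80 for Twist1 in the fit of genes at 1 FPKM, and 1.07 for Tfap2b in the fit without a filter. Beside these, 39.9% of all genes differed between the clones in the filtered fit and 20.8% in the fit without a filter. Pax7 passed the filter only through clone 2, and its difference without a filter was the same. In each case the clones' means lay on opposite sides of the WT mean.

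Tfap2b in WT replicate 1 (0.506 FPKM) stood apart from the other 3 WT libraries (0.259 to 0.295 FPKM), with a gap of 0.856 of the group's range. It was still below both clone 2 libraries.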

How the results depend on the processing

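Of the members' fitted fold changes under all alternatives, 323 kept their side of the threshold, 11 lost a call and 4 reversed. The null minus WT difference of Tfap2a, 0.1 FPKM as reported, also changed sign, to -0.0122 FPKM without clone 1 replicate 1. The number of genes past the threshold for null against WT was 8 in the reported fit, 5 after rescaling, 17 with the 0.1 FPKM filter and pseudocount, 106 in the 3-group fit, 3 with correlated libraries of a line, and 3 to 8 with each library left out (3 without WT replicate 1, 4 without WT replicate 2 or 4 or clone 1 replicate 2, and 5 without clone 2 replicate 1). For clone 1 it was 2266 as reported, 1506 with no filter and 438 to 3091 with each library left out, lowest without clone 1 replicate 2, and 1008 to 1077 without WT replicate 1, 3 or 4. For clone 2 it was 2036, 1160 with no filter and 172 to 2425, lowest without clone 2 replicate 2, and 759 to 1292 without WT replicate 2, 3 or 4. For clone 2 against clone 1 it was 5794 and 3099 to 5904, lowest without clone 2 replicate 2. Of the members, 2 passed in clone 1 as reported, 1 with no filter, 1 with a 5 FPKM filter, 1 without moderation and 0 to 2 with each library left out. In clone 2, 2 passed in the filtered fit (Pax3 and Pax7), 0 with a 5 FPKM filter, under which Ets1 alone was tested, and 1 to 2 with each library left out. Between the clones 4 passed in the filtered fit, Pax7 among them, 1 with a 5 FPKM filter, and 3 to 4 with each library left out. The 4 reversed fold changes were all small differences of null against WT. With each library left out, Ets1 ranged from -0.043 (without clone 1 replicate 1) to 0.449, and Snai1 from -0.05 (without WT replicate 3) to 0.066, with -0.035 without clone 1 replicate 1 and -0.036 without clone 1 replicate 2. Among the related lists, dropping the filter moved the following counts by over 1.5 times. In clone 1, other crest specifiers that fell went from 8 to 5, anterior neural genes that fell from 4 to 2, and border and roof plate genes that rose from 2 to 1 each. In clone 2, EMT genes that fell went from 3 to 1, roof plate genes that rose from 4 to 2, receptors that rose from 2 to 1, crest derivatives that fell from 1 to 0 and anterior neural genes that rose from 2 to 0.

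No paired analysis was possible because null column headers count libraries within their line and do not repeat the titles' numbers. Read depth per library is unknown, and members below 1 FPKM rest on few reads, down to a mean of 10.7 in WT for Foxd3 in the authors' deposited table.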
